A study of Mus musculus with 6 samples.

Results

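Microglia are the resident macrophages of the retina, and 47 genes were followed here that mark them at rest, mark macrophages in general, or belong to the disease-associated programme that microglia switch on around dying neurons. The genes were set by name. Each was read from its brightest probe among those assigned to that single gene symbol. Of the 47 genes, 45 had such a probe, out of 19057 named genes on the array, and Cd68 and Spp1 were not analysed here. A gene was tested when its probe lay above the median of its own array on at least 3 of the 6 arrays, which held for 38 of the 45, among 12046 tested genes in all. Of the 38, 36 passed on all 6 arrays, Clec7a passed on 4 and Ccl6 on 3.

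Central retina of untreated rd1/rd1 mice was measured on single-colour bead arrays, in 3 samples from animals aged 2 months and 3 from animals aged 8 months. Mice of this strain carry a defective Pde6b, the rod phosphodiesterase subunit, and lose their rods early in life, so that both ages lie after rod loss and all 6 samples share the mutation. Each sample joined 3 to 6 punches of 1.5 mm, and wild-type retina was not analysed here. The labels call the samples independent without giving the animals behind each, so the p-values rest on the spread between pools of punches. Replicate numbers follow the titles; the descriptions give 2 month replicates 1 and 2 the same number.

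At rest, microglia depend on the receptor Csf1r, sense neurons through Cx3cr1 and injury through the nucleotide receptor P2ry12, and express Tmem119. When neurons degenerate, microglia lower this resting set and raise genes of lipid handling, lysosomes and adhesion, such as Apoe, Lpl, Cst7, Clec7a, Itgax and Gpnmb. Signalling through Trem2 and its adaptor Tyrobp takes part in this switch. The 47 genes were therefore divided into 10 homeostatic genes, 17 genes shared by macrophages and microglia (pan-myeloid) and 20 disease-associated genes. Of the 47, 13 are also known from other cells of the eye, among them Apoe and Cd9 in Müller glia and Gpnmb in pigment cells, and 12 of these 13 were tested.

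The upstream regions of Laptm5, Trem2 and Fcrls are printed. These genes were picked because they shared the same low sample in the values given further on. They were also picked because the regions carry the core letters of the site bound by PU.1, the factor that specifies myeloid cells. Being picked on both traits, they cannot link the letters to that sample, and no link was tested. Sequences are from RefSeq (GRCm38.p6), 250 bases up to the gene start, 5′ to 3′ on the strand of the gene, with GAGGAA or its reverse complement in capitals. Laptm5 lies on the plus strand at chr4:130913066-130913315, Trem2 on the plus strand at chr17:48346151-48346400 and Fcrls on the minus strand at chr3:87263525-87263774.
Laptm5: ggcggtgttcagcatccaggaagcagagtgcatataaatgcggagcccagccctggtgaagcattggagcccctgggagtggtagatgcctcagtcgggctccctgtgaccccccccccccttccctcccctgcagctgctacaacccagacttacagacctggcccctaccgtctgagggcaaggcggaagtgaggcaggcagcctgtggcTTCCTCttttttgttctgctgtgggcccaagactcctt
Trem2: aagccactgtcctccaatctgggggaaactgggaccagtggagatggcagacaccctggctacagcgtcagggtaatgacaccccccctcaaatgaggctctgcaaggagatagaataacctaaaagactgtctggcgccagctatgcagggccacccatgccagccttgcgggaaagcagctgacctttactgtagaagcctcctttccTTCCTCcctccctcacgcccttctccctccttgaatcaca
Fcrls: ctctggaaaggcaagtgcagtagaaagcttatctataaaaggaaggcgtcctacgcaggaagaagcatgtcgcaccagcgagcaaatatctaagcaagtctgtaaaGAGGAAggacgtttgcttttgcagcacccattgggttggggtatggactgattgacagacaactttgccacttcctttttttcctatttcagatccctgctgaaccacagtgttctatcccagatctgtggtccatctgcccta

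Promoters of 37 of the 47 genes were in the RefSeq table. On either strand, GAGGAA occurred in 18 of the 37, or 48.6%, against 25.9% of the 27025 genes in the table. By class it was present in 2 of 6 homeostatic, 8 of 14 pan-myeloid and 8 of 17 disease-associated promoters. The longer form GAGGAAGT, which contains it, occurred in 1 of the 37 (Spp1), or 2.7%, against 2.79% of all genes. The composite site of PU.1 and interferon regulatory factors, GGAA followed after any 2 bases by GAAA, also occurred in 1 (Clec7a, 2.7% against 2.68%). CACGTG, the core of the site of lysosomal gene control, occurred in 4 (P2ry12, Siglech, Ctsd and Ctsl, 10.8% against 6.86%), and CATGTG, a site form of the pigment cell factor Mitf, in 2 (P2ry13 and Cd9, 5.41% against 13.8%). The motifs were chosen with the array values known, and a match of letters is not a measured site.

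Values are on the log2 scale of the deposited table, where the median of every array was 7.19 and the 75th percentile 7.76. Signals near the median are close to background, and differences there are compressed. Values ran from 6.98 to 14.5, and the arrays' pairwise correlations over all probes were 0.99 to 0.996. The probe of Pde6b lay near background at both ages (7.15 ± 0.0305 and 7.18 ± 0.0396, SD, n = 3). The Müller glia gene Rlbp1 lay far above it, at 12.83 ± 0.0796 and 12.64 ± 0.23. The homeostatic markers Cx3cr1, P2ry12, Tmem119 and Csf1r and the pan-myeloid marker Aif1 passed the filter on all 6 arrays, though P2ry12 and Tmem119 lay between 7.21 and 7.40.

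None of the microglia genes passed the test for a difference between the ages. Of the 38 tested, 0 reached an adjusted p of 0.05 in limma, with Benjamini-Hochberg adjustment across the 12046 genes, where 0.224% of all tested genes did (0.158% higher and 0.0664% lower at 8 months). At an unadjusted p below 0.05 there were 5 of 38, or 13.2%, against 10.4% of all tested genes: 1 higher at 8 months, Lyz2 (all genes 5.1%), and 4 lower, Lpl, Csf1r, Selplg and Ly86 (all genes 5.34%). The values of the ages did not overlap for 5 of the 38, also 13.2%, against 15.0% of all tested genes, with 2 higher at 8 months (7.45% of all genes) and 3 lower (7.59%). Over both directions together, these shares lie near those of all genes. By direction, the 38 gave 4 lower and 1 higher at an unadjusted p below 0.05 (limma), where the 12046 gave 643 lower and 614 higher. The 4 lower genes and Lyz2 were all among the 19 with a mean above the 75th percentile of the arrays. Of the 7380 tested genes of that brightness, 555 were lower and 515 higher at an unadjusted p below 0.05 (limma). The lower genes, and both directions together, are a larger share of the 19 than of the 7380, a difference that was not tested. The median change, 8 months minus 2 months, was −0.02 over the 38 genes and 0.00048 over all tested genes. In bulk tissue, fewer microglia and less of a transcript per microglial cell cannot be told apart.

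**Figure D1:**
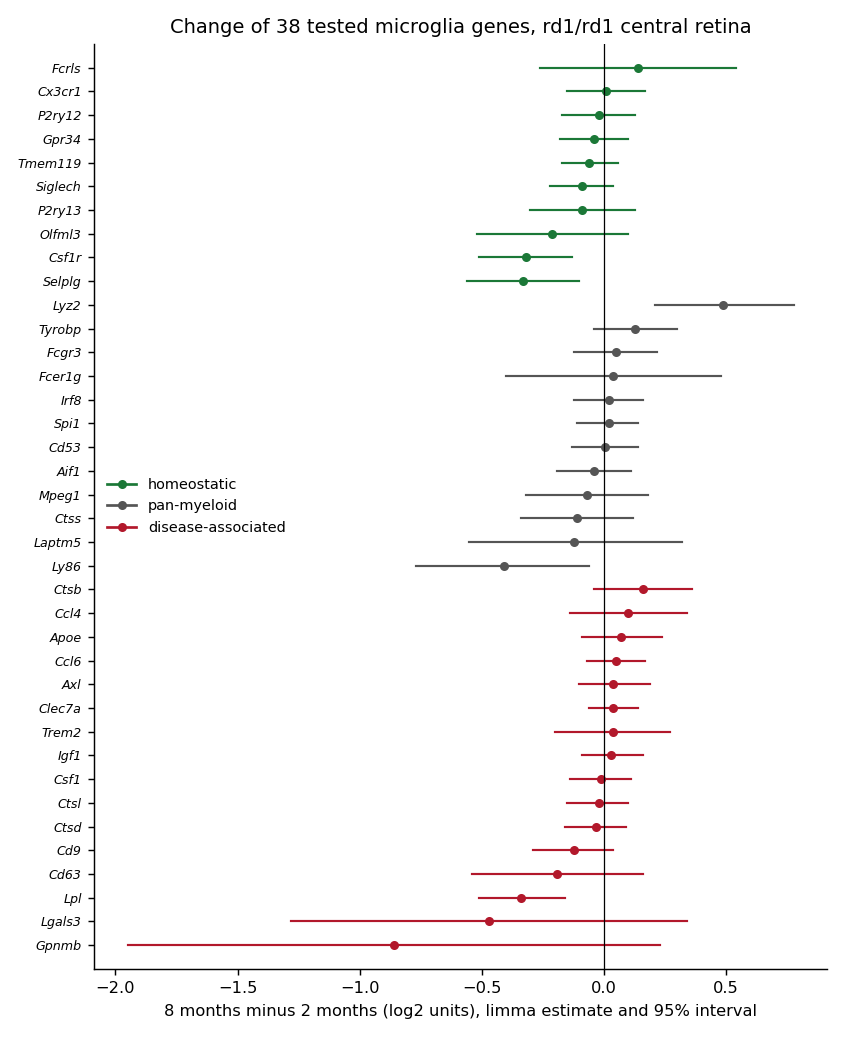
Change from 2 to 8 months of the 38 tested microglia genes (horizontal axis, log2 units, limma estimate as a point and 95% interval as a line), coloured by class. The intervals of Lyz2, Csf1r, Selplg, Ly86 and Lpl lie on 1 side of 0, and none of the 38 passed the adjusted threshold over all genes.

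Among the homeostatic genes, Csf1r, the receptor for the survival factors Csf1 and Il34, had the values 8.22, 8.42 and 8.12 in 2 month replicates 1, 2 and 3, and 7.89, 7.99 and 7.90 in 8 month replicates 1, 2 and 3. Every 8 month sample lay below every 2 month sample. The change was −0.32 (SE 0.0808, 95% interval −0.51 to −0.13, limma adjusted p = 0.226). A second probe of Csf1r, at 7.25 on average, had a change of −0.02.

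Selplg, the P-selectin ligand that microglia express at rest, stood at 8.04, 8.08 and 7.76 at 2 months and at 7.69, 7.70 and 7.5 at 8 months. Again the ages did not overlap, and 2 month replicate 3 lay closest to the 8 month samples. The change was −0.33 (SE 0.0963, limma adjusted p = 0.284), and −0.11 at its second probe.

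The other 8 homeostatic genes overlapped between the ages. The fractalkine receptor Cx3cr1 was measured at 7.87, 7.84 and 7.69 at 2 months and at 7.87, 7.73 and 7.83 at 8 months, a change of 0.01 (95% interval −0.15 to 0.17). The nucleotide receptor P2ry12 was at 7.35, 7.40 and 7.21 and then at 7.30, 7.24 and 7.36, a change of −0.02 (95% interval −0.17 to 0.13). For both, the lowest of the 6 samples was 2 month replicate 3.

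Tmem119, a membrane protein specific to microglia, was at 7.40, 7.40 and 7.30 at 2 months and between 7.30 and 7.32 at 8 months, a change of −0.06 (95% interval −0.17 to 0.06). Olfml3, a secreted protein, was at 9.27, 9.21 and 8.80 and then at 8.78, 9.05 and 8.82, a change of −0.21 (SE 0.132, limma adjusted p = 0.69). The orphan and lipid receptor Gpr34, the lectin Siglech and the ADP receptor P2ry13 had changes of −0.04, −0.09 and −0.09. The second kept probe of Gpr34 had a change of −0.06, and that of Siglech one of opposite sign, 0.05. None of these genes passed the test.

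Fcrls, an Fc receptor-like protein of microglia, had the value 7.54 in 2 month replicate 3 and lay between 8.01 and 8.25 in the other 5 samples. Its change was 0.14 (SE 0.171, limma adjusted p = 0.872) and −0.08 without that sample, and its other probes had changes of −0.03 and 0.02. The difference between the ages was smaller than the distance of that sample from the others.

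**Figure D2:**
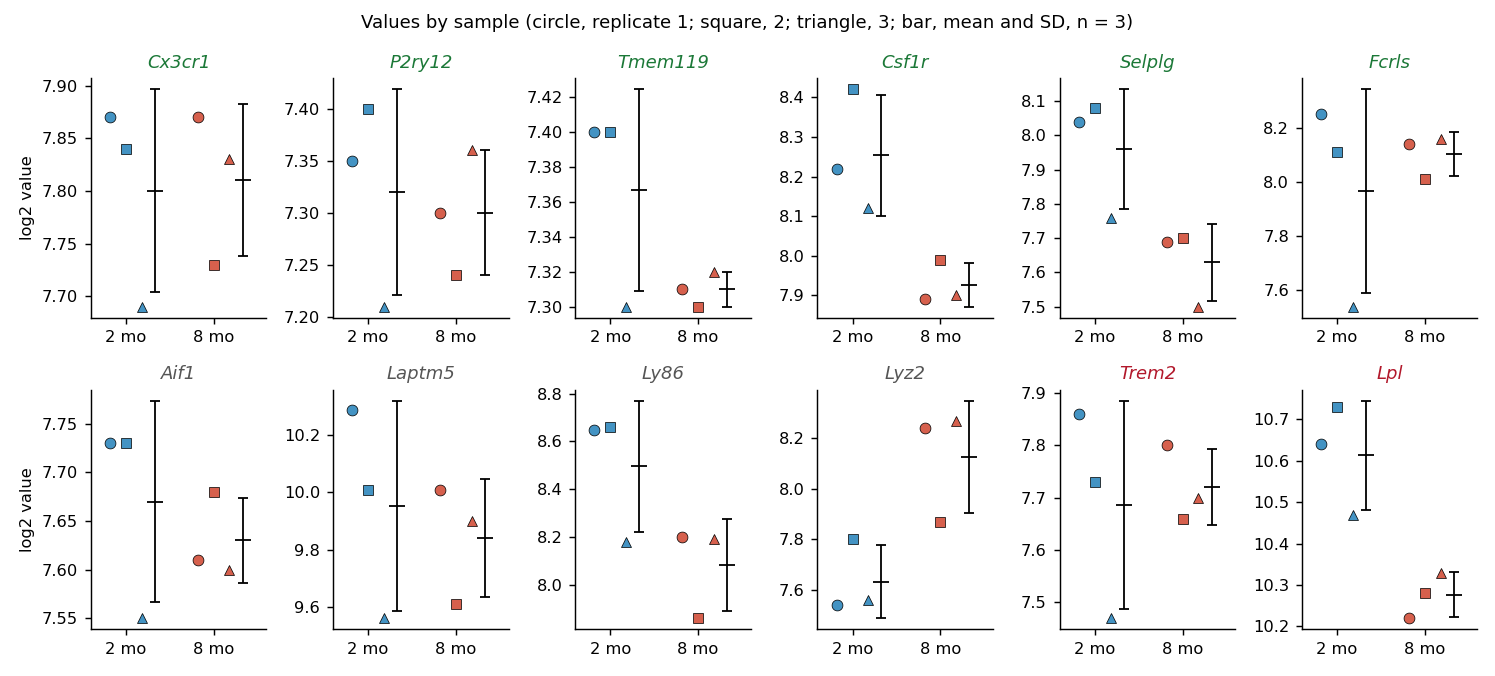
Values by sample (vertical axes, log2 scale, each panel with its own range) of 6 homeostatic genes (green titles), 4 pan-myeloid genes (grey) and 2 disease-associated genes (red) at 2 and 8 months. Points are samples, with circle, square and triangle for replicates 1, 2 and 3, and the bar gives mean and SD (n = 3); the 2 month triangle is the lowest 2 month point in every panel but that of Lyz2.

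The pan-myeloid genes held the largest positive change of the 38. Lyz2, the lysozyme of macrophages, was at 7.54, 7.80 and 7.56 at 2 months and at 8.24, 7.87 and 8.27 at 8 months. The ages did not overlap, with 2 month replicate 2 and 8 month replicate 2 closest to each other. The change was 0.49 (SE 0.122, 95% interval 0.21 to 0.78, 1.41-fold, limma adjusted p = 0.226), and a second probe had one of 0.29. Lyz2 has a near-identical paralog, Lyz1, and whether these probes separate the pair is uncertain.

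Ly86, which holds the receptor RP105 at the surface of myeloid cells, had the largest negative change of the class, but its ages overlapped. It stood at 8.65, 8.66 and 8.18 at 2 months and at 8.20, 7.86 and 8.19 at 8 months. The change was −0.41 (SE 0.151, limma adjusted p = 0.396). The 2 month samples were split, with replicate 3 inside the 8 month range.

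The adaptor Tyrobp was at 7.35, 7.43 and 7.20 at 2 months and at 7.54, 7.43 and 7.41 at 8 months, a change of 0.13 (SE 0.0707, limma adjusted p = 0.623). Fcer1g, the adaptor of Fc receptors, was at 8.60, 8.78 and 8.14 and then at 8.73, 8.24 and 8.68, a change of 0.04 (95% interval −0.40 to 0.48). For Tyrobp and Fcer1g, 2 month replicate 3 was the lowest of all 6 samples.

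Aif1, which encodes the calcium-binding microglia marker Iba1, was at 7.73, 7.73 and 7.55 and then at 7.61, 7.68 and 7.60, a change of −0.04, and of −0.05 at its second probe. Laptm5, a lysosomal membrane protein of blood-derived cells, was at 10.29, 10.01 and 9.56 and then at 10.01, 9.61 and 9.90, a change of −0.12 (95% interval −0.55 to 0.32). Both had their lowest value in 2 month replicate 3.

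The cathepsin Ctss, the pore-forming protein Mpeg1, the Fc receptor Fcgr3 and the tetraspanin Cd53 had changes of −0.11, −0.07, 0.05 and 0.0042. The transcription factors Spi1, which encodes PU.1, and Irf8 were dim, at 7.24 and 7.27 on average, with changes of 0.02 for each. The integrin Itgam, the phosphatase Ptprc (CD45), the oxidase subunit Cybb and the scavenger receptor Msr1 stayed below the filter, with averages of 7.15, 7.13, 7.12 and 7.15, where a difference would not be detectable.

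The disease-associated genes had no shared direction. Of the 16 tested, 8 had positive and 8 negative changes, none was called, and their median was 0.01. Trem2, the lipid-sensing receptor of the programme, was at 7.86, 7.73 and 7.47 at 2 months and at 7.80, 7.66 and 7.70 at 8 months, a change of 0.04 (95% interval −0.20 to 0.27). Apoe, the lipid carrier, was at 11.98, 12.01 and 11.80 and then lay between 11.94 and 12.06, a change of 0.07 (95% interval −0.09 to 0.24). Both were lowest in 2 month replicate 3, and the ages overlapped.

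Lpl, the lipoprotein lipase that frees fatty acids, had the smallest p of the 38 genes. It was at 10.64, 10.73 and 10.47 at 2 months and at 10.22, 10.28 and 10.33 at 8 months, with no overlap. The change was −0.34 (SE 0.0748, 95% interval −0.51 to −0.16, limma adjusted p = 0.168). Lpl is also made by muscle and other cells, and the skeletal muscle markers had mean levels of 8.61, 9.47 and 7.96 at 2 months and 7.91 to 8.09 at 8 months; their part in the Lpl difference was not tested.

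Several genes that single out the disease-associated state were at background. Cst7, a cathepsin inhibitor, was at 7.13, 7.18 and 7.26 at 2 months and at 7.25, 7.18 and 7.12 at 8 months. The integrin Itgax was at 7.15, 7.19 and 7.05 and then at 7.15, 7.17 and 7.08, and the chemokine Ccl3 averaged 7.15. These 3 did not pass the filter. The beta-glucan receptor Clec7a lay between 7.16 and 7.19 at 2 months and between 7.20 and 7.22 at 8 months, a separation of ages within the background range (change 0.04, limma adjusted p = 0.848).

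The chemokine Ccl4 was between 7.20 and 7.37 in 5 of the samples and at 7.63 in 8 month replicate 1, a change of 0.10 (SE 0.102). Ccl6 had a change of 0.05. The growth factors Csf1 and Igf1 had changes of −0.01 and 0.03, each with a 95% interval within −0.14 and 0.16. A second probe of Igf1 had a change of −0.07. The receptor tyrosine kinase Axl, which binds Gas6 on dying cells, had a change of 0.04.

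Among the lysosomal genes, the protease Ctsb was at 12.53, 12.61 and 12.32 at 2 months and at 12.75, 12.57 and 12.61 at 8 months, a change of 0.16 (SE 0.0858, limma adjusted p = 0.623). Ctsd and Ctsl, proteases of the same compartment, read close to background at 7.24 and 7.31 on average. The tetraspanins Cd9 and Cd63 had changes of −0.12 and −0.19, and the other probes of Cd63 had 0.09 and −0.13, so its probes disagreed in sign.

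Gpnmb and Lgals3 had the most negative changes of the 38 genes and rested in large part on 1 sample. Gpnmb, a glycoprotein of lysosomes and melanosomes, was at 8.69, 10.49 and 9.02 at 2 months and at 9.11, 8.39 and 8.12 at 8 months (change −0.86, SE 0.466, limma adjusted p = 0.624). Lgals3, a galectin of phagocytes, was at 8.45, 9.92 and 8.69 and then at 8.63, 8.66 and 8.36 (change −0.47, SE 0.346, limma adjusted p = 0.736). Without 2 month replicate 2 the changes were −0.31 and −0.02.

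The sample 2 month replicate 2 was also the highest for the pigment genes Dct and Tyrp1 and for a muscle gene. Dct, an enzyme of melanin synthesis, had the values 10.44, 12.28 and 10.95 at 2 months and 10.41, 10.23 and 9.13 at 8 months. Tyrp1, another enzyme of melanin synthesis, stood at 9.56 there and between 7.41 and 8.27 elsewhere, and the muscle gene Myl1 at 11.14 there and between 7.14 and 9.32 elsewhere. Over the 16 pigment cell and pigment epithelium markers, all tested, the mean level was 9.08 to 9.66 at 2 months and 8.61 to 9.07 at 8 months. With that pigment level as a covariate the changes of Gpnmb and Lgals3 were 0.17 and 0.27, with the red blood cell level they were 1.00 and 1.08, and the second kept probe of Gpnmb had a change of −0.06.

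**Figure D3:**
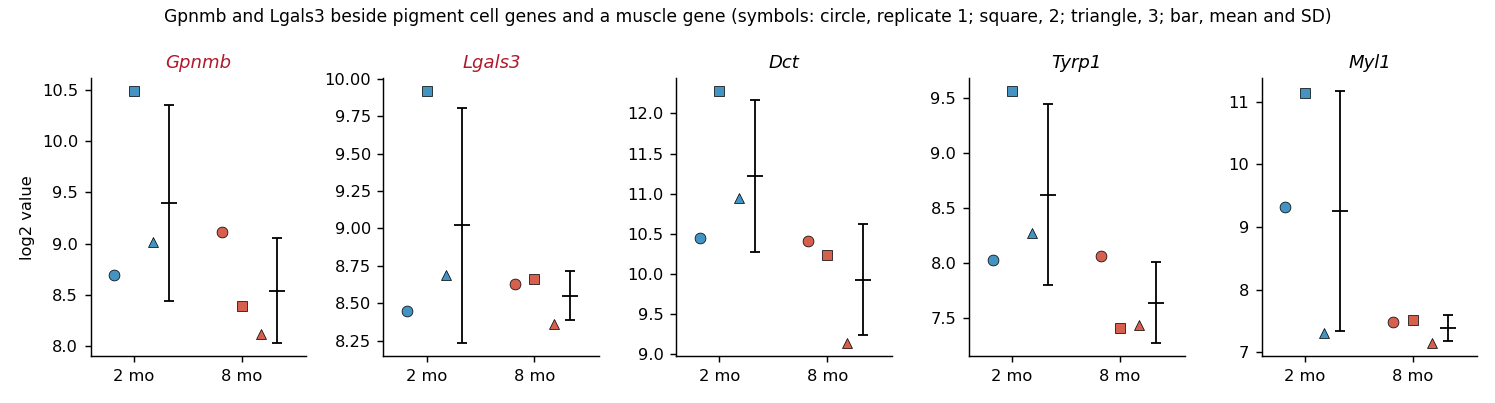
Values by sample (vertical axes, log2 scale, each panel with its own range) of Gpnmb and Lgals3 beside the pigment cell genes Dct and Tyrp1 and the muscle gene Myl1 at 2 and 8 months. Points are samples, with circle, square and triangle for replicates 1, 2 and 3, and the bar gives mean and SD (n = 3); 2 month replicate 2 is the highest sample in all 5 panels.

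Homeostatic and disease-associated genes were then set against each other. Of the 16 disease-associated genes tested, 12 are also known from other cells of the eye, and the 4 that are not (Trem2, Clec7a, Ccl4 and Ccl6) had changes of 0.04 to 0.10, all with means below the 75th percentile of the arrays. Of the 10 homeostatic genes, all tested, 8 had negative changes, with a median of −0.07 and a range of −0.33 to 0.14. That median was −0.03 without 2 month replicate 1 and 0.03 with the red blood cell level as a covariate. Of the 16 disease-associated genes tested, 8 were negative, with a median of 0.01 and a range of −0.86 to 0.16. Among all tested genes 49.8% were negative. In the genes whose mean exceeded the 75th percentile of the arrays, the medians were −0.21 for 5 homeostatic and −0.12 for 9 disease-associated genes, against 0.00049 for the 7380 genes of that brightness. The lists were chosen with results in view, and no p was computed between them.

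By sample, the median deviation of the 10 homeostatic genes from their own mean over the 6 samples was 0.13, 0.08 and −0.07 at 2 months and −0.06, −0.05 and −0.03 at 8 months. The 2 month replicates 1 and 2 stood above the 8 month samples, and 2 month replicate 3 stood with them. For the 12 pan-myeloid genes it was 0.08, 0.07 and −0.15 at 2 months and 0.02, −0.02 and 0.0045 at 8 months. For the 16 disease-associated genes it was −0.01, 0.05 and −0.07 and then −0.01, −0.02 and −0.02. Over each class the 8 month medians lay within 0.04 of each other, but among the 5 brighter pan-myeloid genes they were 0.11, −0.28 and −0.0017, with Laptm5, Fcer1g, Ly86 and Lyz2 all lowest at 8 months in replicate 2.

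Within the 2 month group, replicate 3 was the lowest sample for most of the microglia genes. Of the 38 tested genes, 31 had their lowest 2 month value in replicate 3, or 81.6%, against 34.6% of all tested genes. It was the lowest of all 6 samples for 18 of the 38, or 47.4%, against 17.4% of all tested genes. The median difference between replicate 3 and the mean of replicates 1 and 2 was −0.19 over the 38 genes and −0.002 over all tested genes. Restricted to the 26 tested genes not known from other cells of the eye, 24 were lowest in replicate 3 among the 2 month samples, with the same median of −0.19. For all 10 homeostatic genes replicate 3 was the lowest of the 2 month samples. Low values in replicate 3 were not particular to microglia genes. It was the lowest 2 month sample for 6 of 7 skeletal muscle and 4 of 5 red blood cell markers. For pigment, endothelial and mural, and retinal neuron markers the counts were 5 of 16, 2 of 14 and 2 of 13.

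**Figure D4:**
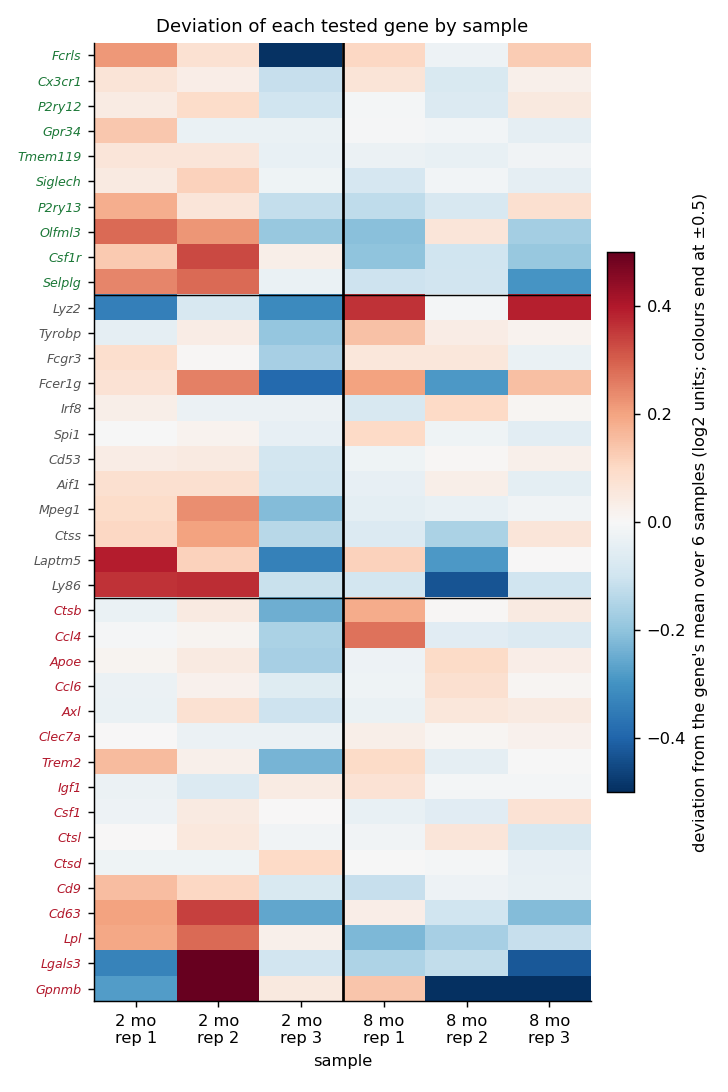
Deviation of each of the 38 tested microglia genes (rows, names coloured green, grey and red for homeostatic, pan-myeloid and disease-associated) from its own mean over the 6 samples (columns), in log2 units with colours ending at ±0.5. The column of 2 month replicate 3 is mostly blue in the upper blocks, while Gpnmb and Lgals3 at the bottom are highest in 2 month replicate 2.

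The 2 month samples also differed in genes of glia, photoreceptors and blood and in sex-linked genes. Gfap, the intermediate filament of astrocytes and reactive Müller glia, was at 9.82 in 2 month replicate 3 and between 10.64 and 11.08 in the other 5 samples. The mean level of the other 10 tested Müller glia and astrocyte markers was 10.28, 10.23 and 10.28 at 2 months and 10.25 to 10.41 at 8 months. These 10 were split: replicate 3 was the lowest 2 month sample for 5 and the highest for 3. It was the lowest 2 month sample for 34.6% of all tested genes. Eif2s3y, a Y-linked gene whose probe was below the filter, read 7.79, 8.27 and 7.10 at 2 months and 7.12 to 7.18 at 8 months. Xist, the RNA that silences an X chromosome in females, read 9.40, 8.73 and 11.10 at 2 months and 10.48 to 11.08 at 8 months. For Eif2s3y and Xist, 2 month replicate 3 lay with the 8 month samples. Uty, another sex-linked gene, did not have that pattern. It lay near background, at 7.23, 7.23 and 7.17 at 2 months and 7.23 to 7.25 at 8 months. The haemoglobin gene Hbb-bs was at 11.17, 12.38 and 10.87 at 2 months and between 9.72 and 9.83 at 8 months. The 10 tested photoreceptor markers had mean levels of 9.92, 9.92 and 9.54 at 2 months and 8.88, 8.88 and 8.28 at 8 months, and 8 of the 10 were lowest among the 2 month samples in replicate 3. Arr3, the cone arrestin, fell by 1.55 between the ages (SE 0.127, limma adjusted p = 0.00936), with an adjusted p of 0.385 with the red blood cell level as a covariate and 0.0828 without 2 month replicate 1. With the red blood cell level as a covariate, the changes of Lpl, Csf1r, Selplg and Ly86 shrank to −0.10, −0.02, −0.10 and −0.06, that of Lyz2 was 0.80, and 10 of the 38 genes had negative changes. That level does not overlap between the ages. With the Xist level as a covariate the first 4 were −0.24, −0.21, −0.18 and −0.23. How far cone genes, Gfap, sex or blood bear on the microglia genes beyond these values was not tested.

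Leaving out each sample in turn, 4 to 10 of the 38 genes had an unadjusted p below 0.05 in limma and none passed over all genes. The highest count, 10, came without 2 month replicate 3, and the other omissions gave 4 to 6. Those 10 were 26.3% of the 38, against 12.1% of all tested genes in the same fit. Replicate 3 had been singled out for its low values in these same genes, so its removal raises their 2 month means by construction and nothing is read from that count. Without it the changes of Lpl, Csf1r, Selplg and Ly86 were −0.41, −0.39, −0.43 and −0.57, and the median change of the 38 genes was −0.07.

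Among genes that signal to microglia, none was called. Of 24 ligands, receptors and signalling partners, 20 were tested and 0 were called, with 12 positive and 8 negative changes and a median of 0.03; 2 had an unadjusted p below 0.05 (limma), against 10.4% of all tested genes. Gas6, the bridging ligand of Axl and Mertk, was at 10.79, 10.87 and 10.65 at 2 months and at 11.03, 11.03 and 10.97 at 8 months, a change of 0.24 (SE 0.0649, limma adjusted p = 0.259). The cytokine Tgfb1, which keeps microglia at rest, had a change of 0.14 (SE 0.0504, limma adjusted p = 0.403). For both the 8 month samples lay above the 2 month samples. The ligands Cx3cl1 and Il34 had changes of 0.19 (SE 0.11) and 0.03 (SE 0.0834), and the phagocytic receptor Mertk one of −0.01. Grn, the lysosomal growth factor progranulin, had a change of −0.20 (SE 0.109).

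Of 24 further homeostatic genes, 16 were tested and 0 called (median −0.02, 2 with an unadjusted p below 0.05 in limma, where 10.4% of all genes had one). Their leading members were the ribonuclease Rnase4, at 8.21, 8.27 and 8.08 and then 8.70, 8.42 and 8.66 (change 0.41, SE 0.0874, limma adjusted p = 0.165), and the matrix protein Sparc (change −0.49, SE 0.193, limma adjusted p = 0.436), both also made by other cells. Among the 16, replicate 3 was the lowest 2 month sample for 6 and the highest for 5, so this list did not share its low values. Of 32 further disease-associated genes, 24 were tested and 0 called (median 0.0095, 2 with an unadjusted p below 0.05, limma, near the share over all genes). Hif1a, the hypoxia factor, led them with a change of 0.20 (SE 0.046, limma adjusted p = 0.207), and Ank, a pyrophosphate transporter, and the chemokine Cxcl10 had changes of 0.17 and 0.19. In this list of 24, replicate 3 was the lowest 2 month sample for 13 and the highest for 2. Among all tested genes it was the lowest 2 month sample for 34.6%.

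Markers of other immune cells were mostly at background. Of 20 markers of border macrophages and monocytes, 18 had a probe and 11 were tested, with 0 called and a median change of 0.04. Among the 11, 2 had an unadjusted p below 0.05 (limma), against 10.4% of all tested genes. The mean level of the 11 was 7.77, 8.12 and 7.82 at 2 months and 7.79 to 7.82 at 8 months. The monocyte receptor Ccr2 averaged 7.11 and 7.10 at the ages, and the border macrophage genes Cd163 and Pf4 averaged 7.12 to 7.16, all below the filter. Mrc1, the mannose receptor, was at 7.17 ± 0.099 and 7.21 ± 0.042, and Ly6c2 was not analysed here. Lyve1, another border macrophage marker, lay well above background, at 8.50 ± 0.203 and 8.31 ± 0.142 (change −0.19, SE 0.114, limma adjusted p = 0.682). Stab1, a scavenger receptor of macrophages and vessels, was at 10.93, 10.98 and 10.77 and then at 10.12, 10.61 and 10.30 (change −0.55, SE 0.121, limma adjusted p = 0.168). Ms4a7 had a change of 0.21 (SE 0.0724, limma adjusted p = 0.382).

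Of 20 lymphocyte and granulocyte markers, 5 passed the filter and 0 were called. Among the 5, 1 had an unadjusted p below 0.05 (limma), against 10.4% of all tested genes. Mean levels of the 5 were 7.27 to 7.38 at 2 months and 7.23 to 7.40 at 8 months. The T cell gene Cd3e averaged 7.16 and 7.22 and stayed below the filter. The granulocyte genes did not move together. S100a9 had a change of −0.03 (SE 0.0459), with overlapping ages, and Ltf one of 0.18 (SE 0.211), with 8.08 in 8 month replicate 3. The neutrophil gene S100a8 was at 7.55, 7.68 and 7.41 and then at 7.27, 7.37 and 7.32 (change −0.23, SE 0.0744, limma adjusted p = 0.338). The haemoglobin gene Hbb-bs was likewise higher in every 2 month sample, and the part of blood in the S100a8 values was not tested.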

How the data were processed

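RNA of 6 samples was measured on Illumina arrays. The authors deposited 1 table of values that was taken as log2, judging by its range. How the arrays were read and corrected for background is not given in the sources used here. Once sorted, the 6 columns differ by at most 0.00307 at any rank, as they would after quantile normalization. Groups and replicate numbers were taken from the titles. Probes (45281) were named through the GEO annotation: 34885 had 1 symbol, 18 several and 10378 none, 0 symbols were updated through RefSeq gene numbers (GRCm38.p6) and 78 named probes had no match. Of 22458 probes above the 50th percentile of their array on at least 3 arrays, the one with the highest mean stood for each of 12046 genes.

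Each change came from limma 3.58.1 (R 4.3.3; lmFit, eBayes, 4 residual and 3.311 prior degrees of freedom) over all genes, with no covariate, adjusted by Benjamini-Hochberg at 0.05. The test was checked on simulated data. The number of arrays limits the precision. The genes, their classes, the lists and the motifs were chosen with earlier results of these data known. All 47 genes could be named. Of other lists the 3 tested genes with the smallest p and a fixed set of defining markers could be named. Every sample value was given for the 8 genes with the smallest p and for anchors of each class; those of Fcrls, Olfml3, Fcer1g and Laptm5 were added after they were seen. Alternatives were the filter, the probe, the variance prior, a replicate block, covariates, centring and leaving out each sample. Samples were not treated as paired, since not every same-numbered pair had correlated deviations above 0.1.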

Additional observations from a re-analysis of the deposited data

How the results depend on the processing

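None of the 38 genes passed in any of the 15 alternatives, in which the smallest adjusted p of any of them ranged from 0.0767 to 0.725 (limma); 2 to 10 of them had an unadjusted p below 0.05. The count over all genes did depend on the setting, from 19 higher and 8 lower to 5 and 2 when dim probes were kept, 38 and 35 when more of them were dropped, 52 and 52 with a trended, robust prior, 0 and 0 with the red blood cell level as a covariate, 2 and 0 with the pigment level, and 2 and 0 with the Xist level, which was added after the data were seen. Leaving out each sample gave 2 to 12 higher and 0 to 19 lower, with the fewest without 2 month replicate 1. The replicate block gave 14 higher and 18 lower; same-numbered samples had correlated deviations of 0.0239, 0.139 and 0.16, each sample correlating best with its own number. With the stricter filter the median change was −0.12 over the 19 genes left, −0.21 for homeostatic and −0.12 for disease-associated genes. With the red blood cell level, whose ages do not overlap, the medians were 0.10, 0.03 and 0.14; 30 of the 38 single changes moved by more than the replicate SD there, 10 with the Xist level, 4 with the pigment level and 3 with the mean of a gene's probes. Homeostatic minus disease-associated median change was −0.08, and −0.10 to −0.03 when each sample was left out. The cause of these shifts was not tested. Signal over background limits what can be seen of the 7 genes below the filter and of those near the array median.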
